A study of Mus musculus with 8 samples.

Results

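The transcript store of the normal mature mouse egg was described from 4 single oocytes of control females, each sequenced as a library of its own. Genes were taken as members when they had 10 or more counts in all 4 control libraries, which 8387 of the 37224 genes in the count table did. They were MII oocytes, eggs that have stopped in the second meiotic metaphase and wait for sperm, and came from females induced to superovulate. The series also holds 4 MII oocytes of Setd1bGdf9cKO females, a conditional knockout of the histone methyltransferase gene Setd1b, which are used here only to check the targeted gene. The labels give the genotype of the other oocytes as Control and do not state which alleles those females carried, their strain or age, or whether the 4 oocytes came from different females. Errors below are SDs over these 4 oocytes (n = 4), so they hold the difference between eggs together with that between libraries.

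A fully grown oocyte shuts down transcription before it matures, and the mature egg and the early embryo run on mRNA that was made and stored during growth. Stored messages are held back with short poly(A) tails and are brought into translation when the tail is lengthened, for which cytoplasmic polyadenylation elements near the end of the 3' untranslated region (3' UTR) are the known signal. Other messages lose their tails and decay during maturation, so the pool of the mature egg is what remains after both processes. The libraries were primed on poly(A) tails, and a level measured here therefore reflects both how much of a message was present and how well its tail could be primed.

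Totals of assigned counts in the control libraries were 11029602, 13519404, 12827443 and 12504464 for oocytes 1 to 4. The targeted gene, Setd1b (chromosome 5, 123142193 to 123167435, mm10), had 97, 160, 112 and 109 counts in the 4 control libraries, or 8.72 to 11.8 CPM (counts per 1000000), against 3.17 to 5.92 CPM in the 4 knockout libraries, where each value lay below every control value. All pairs of control libraries differed by far more than counting noise: chi-square values divided by degrees of freedom were 41.2 to 144 over the members. Members took 99.3% to 99.5% of the counts of each library. Another 1140 genes had 10 counts in 3 of the 4 libraries and held 0.300% of control counts, and 24750 genes reached 10 counts in none. At these depths, 3 counts correspond to 0.222 to 0.272 CPM, which is the level that a gene with no count could still have.

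The labelled cell type was checked with 4 oocyte markers. The growth factors Gdf9 and Bmp15 signal from the oocyte to the follicle, Zp3 encodes the zona pellucida protein to which sperm bind, and Mos is the kinase that starts the pathway holding the egg at metaphase. For comparisons between oocytes, levels are given in CPM of library totals scaled with trimmed mean of M-values (TMM) factors. Gdf9 had 3402, 6173, 4382 and 3030 CPM in oocytes 1 to 4, and Bmp15 had 2180, 1958, 1910 and 1839 CPM. Both were high in every egg, Gdf9 over about a 2-fold range and Bmp15 within a narrow one. Mos was at 584, 574, 335 and 188 CPM and Zp3 at 197, 112, 77.7 and 135 CPM. All 4 markers were members.

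Members made up 22.5% of the genes that the count table lists, and 57.6% of the listed genes had no count in any control library. Among protein-coding genes the same shares were 36.4% and 38.5%. Markers of other cells that could have come along are read beside these shares. Of 31 matched markers of the cumulus and granulosa cells that surround the egg, 4 were members (Cyp19a1, Esr2, Kitl and Nr5a2), 16 of the other 27 had no count in any control library, and the list summed to 209 to 223 CPM. Among those at 0 were Foxl2, Amhr2, Ptx3 and Tnfaip6. Cyp19a1, the aromatase of oestrogen synthesis, stood at 70.9, 96.9, 77.9 and 63.9 CPM and Esr2, an oestrogen receptor, at 105, 82.2, 82.1 and 112 CPM. Of 24 matched markers of blood, stroma and oviduct, 4 were members (Epcam, Pecam1, Dcn and Kdr) and 16 had no count, with a sum of 89.4 to 110 CPM. Of 19 genes listed as male germ cell markers, 1 was a member and 11 had no count. The member was Odf2, which is not restricted to male germ cells, at 127, 184, 164 and 161 CPM. It made up most of the list's sum of 128 to 189 CPM.

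The store was concentrated in a small share of genes. In counts, 50% of each library lay in 306, 374, 386 and 277 genes for oocytes 1 to 4, a mean of 336 ± 52.7 genes. The 10 genes of most counts held 9.65%, 8.61%, 8.29% and 10.8%, the first 100 held 32.5%, 29.0%, 28.4% and 34.0%, and the first 1000 held 73.2%, 70.0%, 69.6% and 74.3%. Wilson 95% intervals of the shares of the first 10 and first 100 genes are at most 0.0276 percentage points to either side and cover counting error only. Oocytes 1 and 4 were more concentrated than oocytes 2 and 3 on each of these measures. Counted per length, as TPM (transcripts per 1000000), 50% lay in 117 to 188 genes and the first 10 held 17.6% ± 1.78 of the total.

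**Figure D1:**
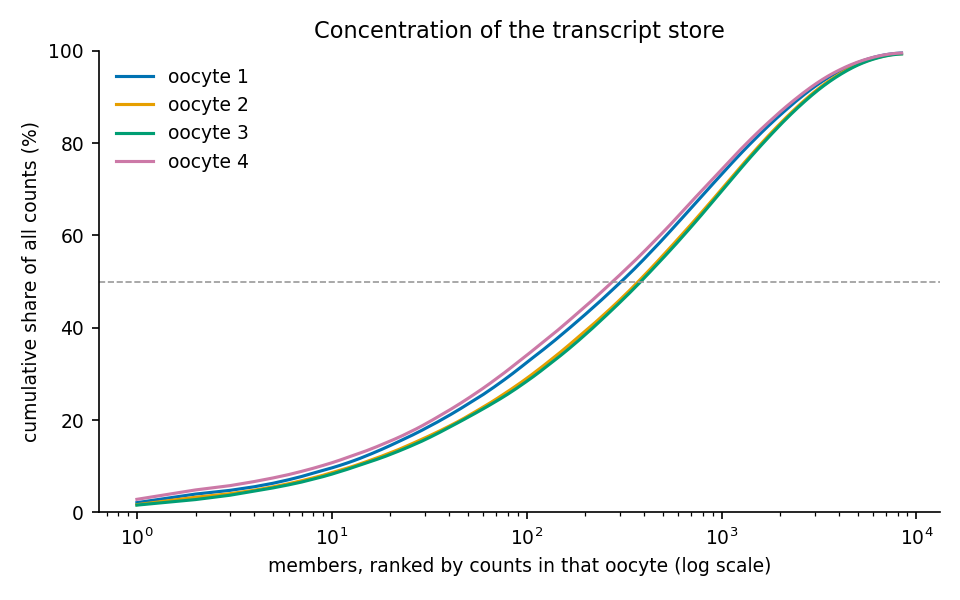
Cumulative share of all counts (vertical axis, %) against the number of members, ranked by counts within each oocyte (horizontal axis, log scale), with 1 line per oocyte. The dashed line marks 50%, which the curves cross at 277 to 386 genes, oocyte 4 first and oocyte 3 last.

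Mean levels of members ran from 0.212 to 45684 TPM, with a median of 18.8 TPM and with 80% of members between 3.01 and 181 TPM. Above 1000 TPM stood 127 genes, which together held 47.6% of all TPM. A further 1332 genes between 100 and 1000 TPM held 35.9%, 4036 genes between 10 and 100 TPM held 14.3%, and the 2892 genes at 10 TPM or less held 1.42%. The rule has a threshold, and the members of smallest mean count were H2afz (10, 12, 15 and 10 counts), Mier1 (15, 11, 12 and 10) and Mrps36 (14, 10, 15 and 10). Just outside it, the genes of largest mean were left out for 1 poor library each: Kera had 95, 0, 352 and 320 counts, Gca 316, 199, 240 and 2, and Dirc2 1, 43, 263 and 288.

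The most abundant message by TPM was mt-Cytb, the mitochondrially encoded cytochrome b, at 48879, 39158, 30329 and 64368 TPM in oocytes 1 to 4. It ranked first in every egg, with the largest value in oocyte 4 and the smallest in oocyte 3. The order of mitochondrial messages among themselves is uncertain, as set out below. Several of them share most of their sequence with other genes and had few or no counts. The most abundant nuclear message was Dppa3 (chromosome 6, 122626410 to 122630272), which encodes the maternal protein Stella that protects the maternal genome from loss of DNA methylation. Dppa3 stood at 23140, 18862, 17301 and 27016 TPM and ranked second in oocytes 1, 2 and 4. Next by mean was Mphosph6 (chromosome 8, 117791645 to 117801929), a partner of the nuclear RNA exosome, at 18729, 15129, 13802 and 21820 TPM. These 3 messages had the same order of oocytes, with oocyte 4 highest, then 1, 2 and 3.

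Bcl2l10 (chromosome 9, 75347758 to 75351632), a member of the Bcl2 family expressed in oocytes, had 15408, 17491, 22151 and 12304 TPM, and so was highest in oocyte 3 and lowest in oocyte 4. Btg4 (chromosome 9, 51116001 to 51119700), which links maternal mRNA to the CCR4-NOT deadenylase, had 16115, 12041, 14378 and 14208 TPM. H1foo (chromosome 6, 115944938 to 115950236), the linker histone of the oocyte, had 12155, 17352, 16405 and 8364 TPM, and so was lowest in oocyte 4. Spin1 (chromosome 13, 51100880 to 51152546), a histone-mark reader needed for meiotic resumption, varied least of these at 11042, 10532, 10324 and 11896 TPM. Because the Spin1 model is long, the gene ranked eighth by TPM while second by CPM, at 19272, 16033, 14832 and 21924 CPM. Zbed3 (chromosome 13, 95325237 to 95337841), a partner of the subcortical maternal complex, had 8337, 10928, 13872 and 6981 TPM.

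The rest of the first 20 by TPM were mt-Nd1, E330034G19Rik, Omt2b, mt-Rnr2, mt-Nd2, Obox2, Oosp1, Rfpl4, Oog3, E330021D16Rik, Dppa3-ps and mt-Nd4, with means from 12627 ± 1557 TPM (mt-Nd1) to 6637 ± 673 TPM (mt-Nd4). Between neighbours in this order the means differed by less than the larger of their 2 SDs, except between mt-Cytb and Dppa3 and between mt-Nd1 and Spin1. The first 10 by CPM included the same nuclear genes from Dppa3 to Zbed3, with mt-Rnr2 in the place of mt-Nd1. Dropping oocyte 4 exchanged 2 of the 20, and dropping any of the other oocytes exchanged none.

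**Figure D2:**
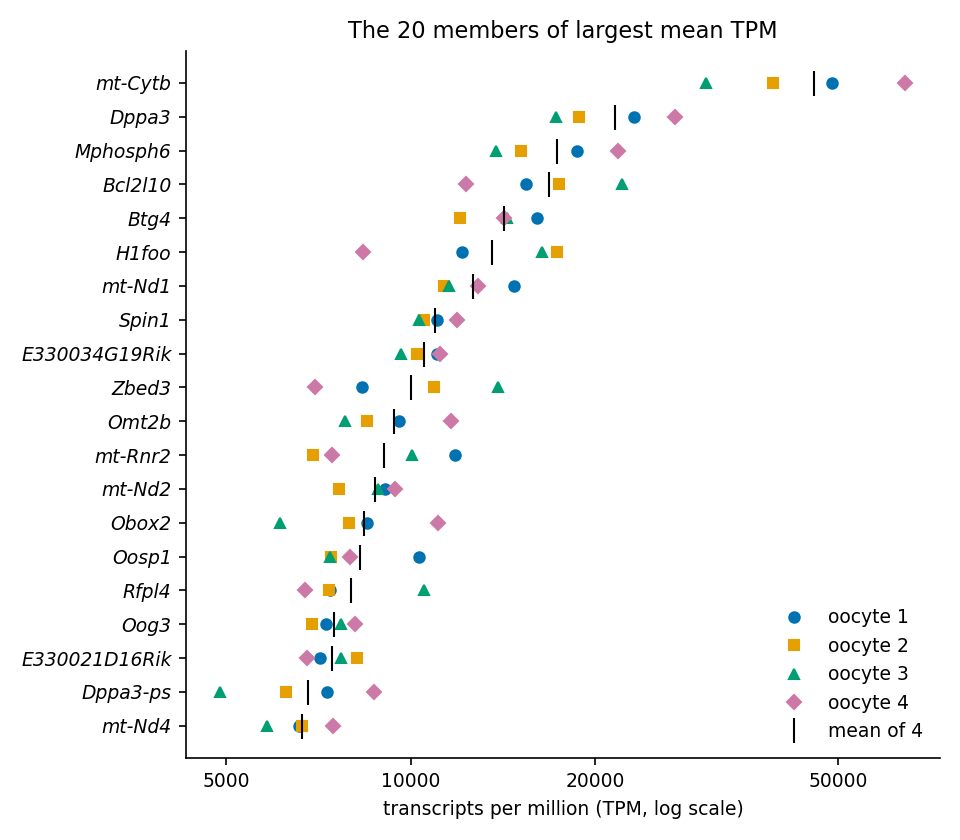
Level of the 20 members of largest mean TPM (vertical axis, ranked) in TPM (horizontal axis, log scale), with 1 symbol per oocyte and a bar for the mean of 4. mt-Cytb stands apart at a mean of 45684 TPM, and Bcl2l10, H1foo and Zbed3 have oocyte 4 at the low end, where Dppa3 and Mphosph6 have it at the high end.

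Of those 20 genes, 14 had an annotated 3' UTR of at least 100 bases, and 10 of the 14 held a cytoplasmic polyadenylation element in the last 100 bases, searched on the transcript strand as TTTTAT or TTTTAAT. The sites of several dominant messages, and of the marker Gdf9, are shown with the 30 bases around them because these are the letters on which recruitment of a stored message is known to rest. They were read from GENCODE release M21 transcripts (GRCm38, the same build as mm10), 5′ to 3′ on the strand of the gene. Capitals mark each copy of the element and, where it falls in the same window, of the polyadenylation hexamer AATAAA, and runs of capitals can hold overlapping copies.
Bcl2l10, chr9:75351587-75351616, plus strand: acatTTTTAATaacttcaaattcttaataa
H1foo, chr6:115950165-115950194, plus strand: aagcTTTTATtgtctaataagctgtcacaa
Spin1, chr13:51152481-51152510, plus strand: taatTTTTATaattatgatgtaactcttat
E330034G19Rik, chr14:24309925-24309954, plus strand: aatgTTTTATgaatAATAAActtttgtaac
Zbed3, chr13:95337812-95337841, plus strand: tttttTTTTAATAAAcTTTTATttatctgc
Omt2b, chr9:78329563-78329592, plus strand: acggTTTTATAATAAATAAAagtttcaggc
Gdf9, chr11:53437862-53437891, plus strand: gtggTTTTATgtgacggaagAATAAActgt
In Omt2b the element ran straight into a pair of overlapping hexamers, and in E330034G19Rik and Gdf9 it lay a short way before the hexamer. In Zbed3 a TTTTAAT overlapped the hexamer and a TTTTAT followed it. A match is a run of letters only and does not show that the message was polyadenylated through it.

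Across protein-coding members, the share with the element was higher where the level was higher. Of 728 members with a window in the lowest decile of mean TPM, 17.2% held it, against 32.5% of 724 in the highest decile, and among the 100 coding members of largest TPM 44.2% of 86 did. Over all members the share was 22.7% of 7236, against 14.5% of 11370 coding genes outside the rule. The same letters read backwards (TATTTT or TAATTTT), which serve as words of equal composition, were in 19.9% of windows in the lowest and 28.9% in the highest decile, and in 37.2% of the 100 coding members of largest TPM. They were in 24.0% of members and 16.7% of coding genes outside the rule, so the gap between those groups was about as wide for them as for the element. The mean A and T content of the windows was 63.4% in the lowest and 67.6% in the highest decile. Among windows of 60% to 70% A and T, the element was in 16.8% of members below and 20.9% of members above the median level, where the reversed words were in 19.2% and 19.1%. Below 50% A and T the element was in 3.89% and 2.46% and the reversed words in 4.28% and 0. Between 50% and 60% the element was in 6.63% and 9.60% and the reversed words in 7.22% and 6.46%. Above 70% the element was in 34.7% and 39.9%, and the reversed words were more frequent, in 40.3% and 42.6%. Across deciles the element and the reversed words thus both went up with level, the element by more. Within bins of A and T content the element went up in each bin from 50% upwards. It went down below 50%, a bin of only 257 members below and 122 above the median level. The reversed words went up only above 70%. The hexamers AATAAA or ATTAAA were in 76.9% of windows in the lowest decile and 87.7% in the highest.

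Abundant messages were also shorter per gene model and lower in GC. The median length of coding members was 5949 bases in the lowest decile of TPM and 2892 in the highest, and median GC was 49.8% and 44.6%. Since TPM is divided by length, part of the length pattern is built into the unit: across members the Spearman correlation of level with length was -0.24 in TPM and 0.22 in CPM. With GC it was -0.21 in TPM and -0.25 in CPM, and with 3' UTR length -0.04 and 0.15. These are descriptions across genes of the same 4 libraries.

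Genes listed as secreted products of the oocyte stood high as a group. Of 13 genes listed, 10 were members, with a median of 3379 TPM against 18.8 TPM for all members, or 545 TPM over all 13, and they held 1.66% ± 0.121 of counts. Kitl, a member, and Tnfaip6, with no count in any control library, are also on the list of cumulus and granulosa markers. The list is therefore not specific to the oocyte, and its counts of genes and its median over all 13 include both. The oocyte-secreted family members Omt2b (9377 ± 1666 TPM), Oosp1 (8275 ± 1393 TPM) and Oosp3 (6089 ± 1003 TPM) stood above Gdf9 (5839 ± 2403 TPM), with overlapping spreads, and Bmp15 was at 1762 ± 216 TPM. Of the zona and fusion list, 10 of 15 genes were members with a median of 125 TPM. The other 5, Cd46, Cd81, Lypd4, Spaca4 and Tmem95, had no count in any control library. The list was not limited to genes known from the egg, so its share of members is not a share of egg genes. Its top gene was Pla2g4c, a cytosolic phospholipase, at 2276 ± 153 TPM. Zp3, at 263 ± 82.8 TPM, stood far below the growth factors, and the zona genes Zp1 and Zp2, at 126 and 106 TPM, below it. The zona pellucida is the coat that the oocyte builds while it grows.

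A list of oocyte-expressed genes, most of them from families with similar copies, held 4.97% ± 0.398 of counts. It also holds Bcl2l10, with 7399, 7326, 8757 and 6239 CPM of list sums of 53347, 45892, 42140 and 58440 CPM in oocytes 1 to 4. Of 30 matched genes, 27 were members, 26 of them above the median of all members, and their median was 1172 TPM. Obox2, a homeobox gene, had 5495, 4484, 3265 and 7579 CPM and Oog3, an oocyte leucine-rich repeat gene, 5345, 4412, 4653 and 6283 CPM. Copies of a family can share reads: 48.9% of the 75-base words of Obox2 and 13.6% of those of Oog3 also occur in transcripts of other genes. Levels of single copies with such overlap are uncertain, because the counting could split or drop their reads. Bcl2l10 and E330034G19Rik share no such word with another gene.

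The subcortical maternal complex is a protein lattice under the egg membrane that the embryo needs for its first cleavages. Its list also holds Khdc1a, Khdc1b and Khdc1c, which are not established parts of the complex. Of the 11 listed genes, 10 were members, all 10 above the overall median. Among the listed genes Zbed3 led at 10029 ± 3040 TPM, followed by Khdc1b at 3349 ± 514 TPM, Nlrp4f at 1381 ± 67.1 TPM and Ooep at 337 ± 56.0 TPM. The complex genes Padi6 (270 ± 59.0 TPM), Nlrp5 (234 ± 47.4 TPM) and Tle6 (79.9 ± 25.0 TPM) were lower. Khdc1b was among the steadiest of them, with 2695, 2664, 2910 and 2647 CPM. Khdc3 was the listed gene outside the rule, with 38, 12, 26 and 3 counts, and 40.4% of its words are shared with other genes. Of 36 other maternal-effect genes, 33 were members with a median of 109 TPM, led by Dppa3 and Spin1, then by Npm2, a chaperone that remodels sperm chromatin (618 ± 54.1 TPM), and Atg5, an autophagy gene (520 ± 18.2 TPM).

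The machinery that stores, activates and removes mRNA was broadly present. For storage and polyadenylation, 43 of 49 genes were members with a median of 46.5 TPM. The RNA-binding protein gene Dazl led at 1679 ± 153 TPM with 2209, 1635, 1538 and 1930 CPM, followed by Lsm14a (1002 ± 93.4 TPM), the helicase Ddx3x (874 ± 156 TPM) and Lsm14b (706 ± 42.8 TPM). For decay, 45 of 55 genes were members with a median of 55.0 TPM. Behind Btg4 came the deadenylase subunits Cnot7 (1137 ± 130 TPM) and Cnot6l (458 ± 85.0 TPM), with the decapping factor Dcp1a at 583 ± 227 TPM between them. Dcp1a varied more, at 979, 1450, 1454 and 790 CPM, with oocytes 2 and 3 above 1 and 4.

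Genes of metaphase arrest and cell-cycle control ranged widely. Of 56 listed kinases, cyclins and inhibitors, 43 were members with a median of 94.0 TPM. Cks1b, a subunit of cyclin-dependent kinases, was at 1667 ± 164 TPM, Wee2, the oocyte kinase that inhibits Cdk1, at 1007 ± 41.9 TPM, and the cyclin Ccnb1 at 864 ± 55.9 TPM. Mos, at 801 ± 375 TPM, had by far the widest spread of these, with 1024, 1154, 713 and 311 TPM. Cdk1 itself, named here after its values were seen, was outside the rule with 41, 8, 48 and 6 counts. Among regulators of the anaphase-promoting complex and cohesion, 38 of 44 were members, led by Pttg1, the securin that holds separase inactive, at 6398 ± 1229 TPM with 4537, 4446, 3414 and 6720 CPM. The checkpoint genes Mad2l1 (1634 ± 281 TPM) and Bub1b (740 ± 158 TPM) and the cohesin release factor Wapl (965 ± 234 TPM) followed. The spindle and kinetochore list had 48 of 57 members and a median of 37.8 TPM, with Cenpn highest at 1101 ± 117 TPM.

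Genes of chromatin and transcription held dominant single members over moderate lists. Of 30 histone and histone chaperone genes, 27 were members with a median of 35.3 TPM, so that H1foo, at 13569 ± 4141 TPM, stood far above the list, and next was H3f3b, the variant H3.3, at 1239 ± 155 TPM. The H3.3 gene was steady, at 1317, 1306, 1390 and 1375 CPM. For histone H3 lysine 4 methylation and Polycomb, 41 of 53 were members with a median of 37.3 TPM, led by Dpy30, a subunit shared by the lysine 4 methyltransferase complexes (1981 ± 367 TPM), and the Polycomb genes Bmi1 (1037 ± 107 TPM) and Suz12 (663 ± 96.9 TPM). For DNA methylation and imprints, 17 of 23 were members with a median of 19.8 TPM, close to that of all members. Behind Dppa3 stood the imprint protector Zfp57 (499 ± 84.2 TPM), Uhrf1 (397 ± 129 TPM) and Tet3 (392 ± 173 TPM). Transcription factors of the oocyte were led by Obox2, Obox5 (4263 ± 597 TPM) and Obox1 (3364 ± 619 TPM), with 23 of 28 listed as members.

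Cytosolic ribosomal protein genes, whose messages are among the most abundant of many growing cells, held 0.0860%, 0.0797%, 0.0722% and 0.0963% of counts in oocytes 1 to 4. Of 88 genes, 29 were members, with a median of 28.5 TPM, above that of all members, but in CPM their median was 10.3 against 24.1 for all members. Over all 88 genes the median was 1.19 TPM. Rps27l, a copy induced by stress in other cells, was highest at 940 ± 79.7 TPM, followed by Rpl4 at 174 ± 23.5 TPM and Rpl32 at 116 ± 26.4 TPM. Many of these genes have processed pseudogenes, and the median share of words found in other genes was 23.1% for members and 30.7% for non-members, against 0 for protein-coding members in general. Whether sharing has a part in these levels was not tested, and Rps19, with 1.05% shared and named here after its values were seen, had 0, 0, 2 and 0 counts. Gapdh, with 22.8% of words shared, was at 0 counts in all 4 libraries. Of 20 reference genes used in other cells, 14 were members with a median of 39.6 TPM, a median that falls below that of all members when the other 6 are counted. Among those with few shared words, Hprt was at 732 ± 79.1 TPM and Actb at 244 ± 68.5 TPM.

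Energy metabolism was uneven. Of 34 genes of glycolysis and pyruvate use, 16 were members with a median of 17.2 TPM, but Ldhb, the lactate dehydrogenase subunit that favours pyruvate formation, stood at 3160 ± 460 TPM. The next genes, Dld (139 ± 45.3 TPM) and Pdhb (82.6 ± 7.51 TPM), belong to the pyruvate dehydrogenase complex that feeds pyruvate into the citric acid cycle. Of 20 genes of that cycle, 17 were members with a median of 19.4 TPM, led by Cs, citrate synthase, at 368 ± 101 TPM. Nuclear genes of oxidative phosphorylation had 55 of 95 members and a median of 22.9 TPM, with Ndufa4 (584 ± 297 TPM) and Cox6b2 (579 ± 122 TPM) at the top. Redox defence had 15 of 28 members, led by the peroxiredoxins Prdx1 (1265 ± 237 TPM) and Prdx2 (319 ± 28.0 TPM). In CPM the median of all members was 24.1. It was 25.6 for glycolysis and pyruvate use, 8.18 for nuclear oxidative phosphorylation and 19.7 for redox defence. Each of these lists thus lay on the other side of the median of all members than in TPM.

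Mitochondrially encoded genes held 5.10%, 3.69%, 3.47% and 5.39% of counts in oocytes 1 to 4. Of 37 genes, 12 were members with a median of 5297 TPM, from mt-Cytb at 45684 ± 14579 TPM down to a transfer RNA. The listed zeros were not spread evenly: mt-Co2, mt-Co3, mt-Atp8 and mt-Nd4l had 0 counts in all 4 libraries, mt-Atp6 had 0, 0, 0 and 2, and mt-Nd3 had 9, 12, 15 and 16. For mt-Co2, mt-Co3, mt-Atp6, mt-Nd4l and mt-Nd3, 97.8% to 99.9% of the 75-base words also occur in transcripts of other genes, whereas mt-Atp8 shares none and overlaps mt-Atp6 on the chromosome. In mt-Cytb, mt-Nd1 and mt-Rnr2 no word is shared. In mt-Co1, at 6303 ± 1369 TPM, 39.8% are shared and in mt-Nd4, at 6637 ± 673 TPM, 61.5%. The order of mitochondrial messages among themselves is therefore uncertain, and the part of sharing in the zeros was not tested.

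Genes known from the later embryo were present in part. Of 19 matched genes known for their activation at the 2-cell stage, 3 were members, Tcstv1 at 147 ± 18.5 TPM, Tcstv3 at 43.9 ± 29.7 TPM and Eif1ad at 7.44 ± 0.879 TPM, and 11 had no count. In 7 of the 16 others more than 50% of words are shared with other genes, so their levels are uncertain. Of 20 factors of pluripotent cells, 9 were members with a median of 22.5 TPM, or 1.15 TPM over all 20, led by Sall4 at 642 ± 64.7 TPM with 1224, 1361, 1189 and 1445 CPM, while Pou5f1 was at 22.5 TPM. Large families had medians below that of all members, 13.6 TPM for 118 of 378 solute carriers and 14.9 TPM for 184 of 405 zinc finger genes named Zfp. In CPM the solute carriers lay slightly above, with a median of 25.5 against 24.1 for all members. The solute carrier of largest TPM was Slc45a3, at 1543 ± 809 TPM, with 1236, 2337, 2727 and 1153 CPM.

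Over 38 lists with at least 5 members, the median of 33 lay above that of all members. In CPM 30 did, with 9 lists on the other side of the median than in TPM. With all matched genes of a list counted, those outside the rule included, 16 did, since requiring 10 counts removes low genes.

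**Figure D3:**
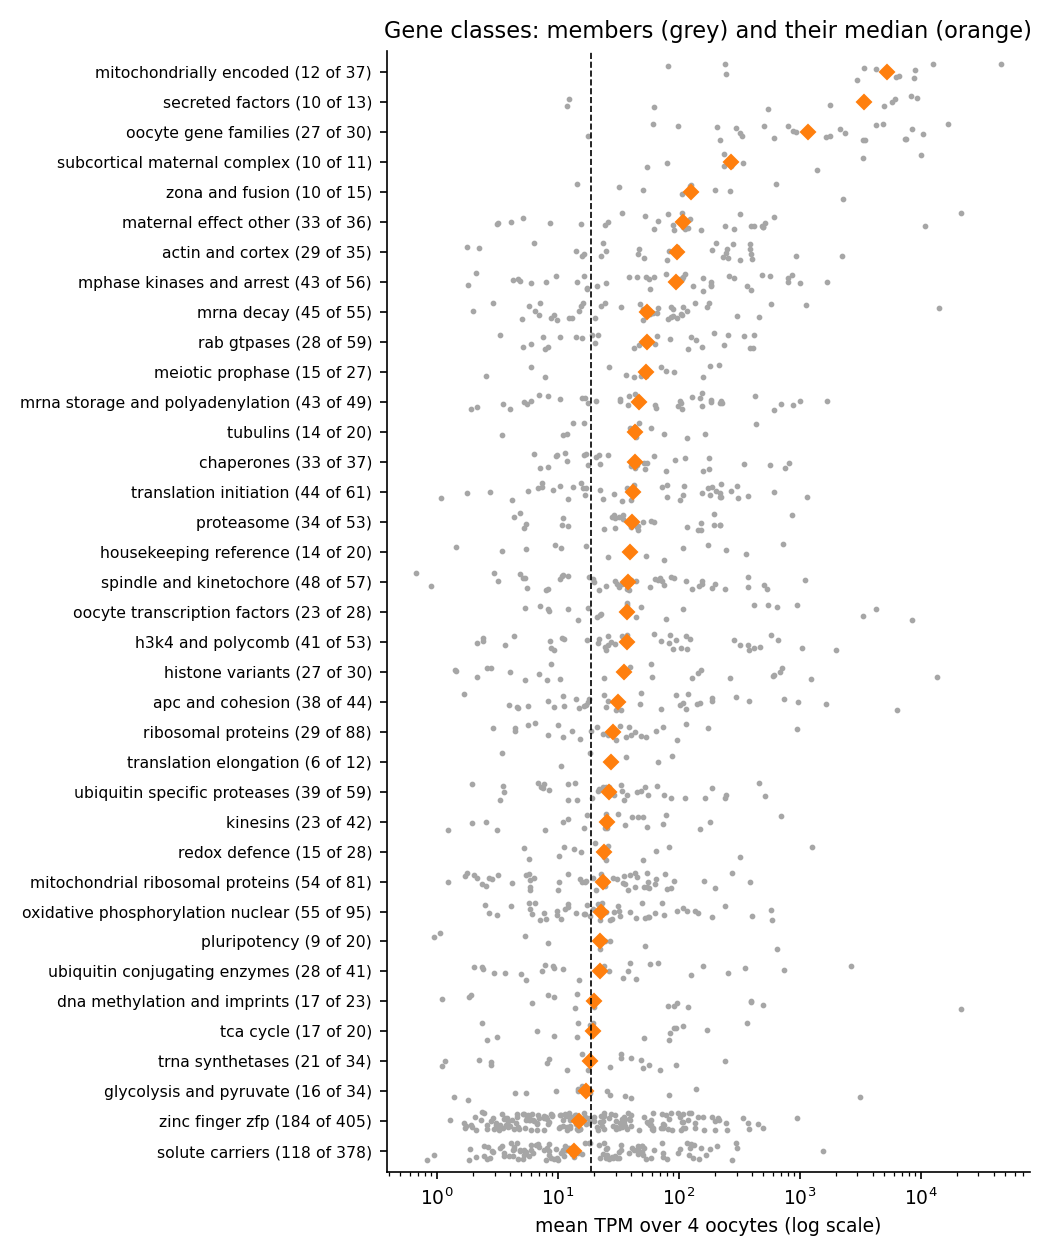
Mean TPM over 4 oocytes (horizontal axis, log scale) of the members of 37 gene classes, with 1 grey point per member and an orange diamond for the median; numbers in brackets are members of matched genes. The dashed line is the median of all members, 18.8 TPM, and secreted factors, oocyte gene families and mitochondrially encoded genes have the highest medians.

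Of the members, 7693 were protein-coding, 438 pseudogenes and 181 long non-coding RNA genes, and these held 92.2%, 3.86% and 1.29% of TPM. The non-coding members of largest mean TPM were mt-Rnr2 (9049 ± 2287 TPM), Dppa3-ps (6791 ± 1619 TPM), mt-Rnr1 (3368 ± 891 TPM), Gm11448 (2797 ± 749 TPM) and Gm5514 (1399 ± 230 TPM). Dppa3-ps is a processed copy of Dppa3 on the X chromosome. It had 1301, 974, 717 and 1641 CPM, in the same order of oocytes as Dppa3, and 8.22% of its words occur exactly in other genes. More than 50% of words were shared for 150 of the pseudogenes and for 171 of the coding members.

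Levels of single genes varied between oocytes well beyond counting noise. The median coefficient of variation (CV, the SD divided by the mean) of CPM was 30.6% over members, against a median of 5.80% from counting alone, and 7634 members had a CV more than 2 times that from counting. The biological CV that edgeR fitted in common to all members was 38.6%. With 1 amplified library per oocyte, this value and the CVs hold differences of amplification and library together with those between eggs. In 4196 of 8387 members the highest oocyte stood less than 2-fold above the lowest, and in 1103, or 13.2%, it stood 4-fold or more above it. The median CV was 41.9% for the 551 members of 1 to 3 CPM and largest at 3 to 10 CPM, at 45.7%, and was 25.7% at 30 to 100 CPM and 17.0% at 300 to 1000 CPM. Above 3000 CPM it was 20.4%, where counting alone gave 0.412%.

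**Figure D4:**
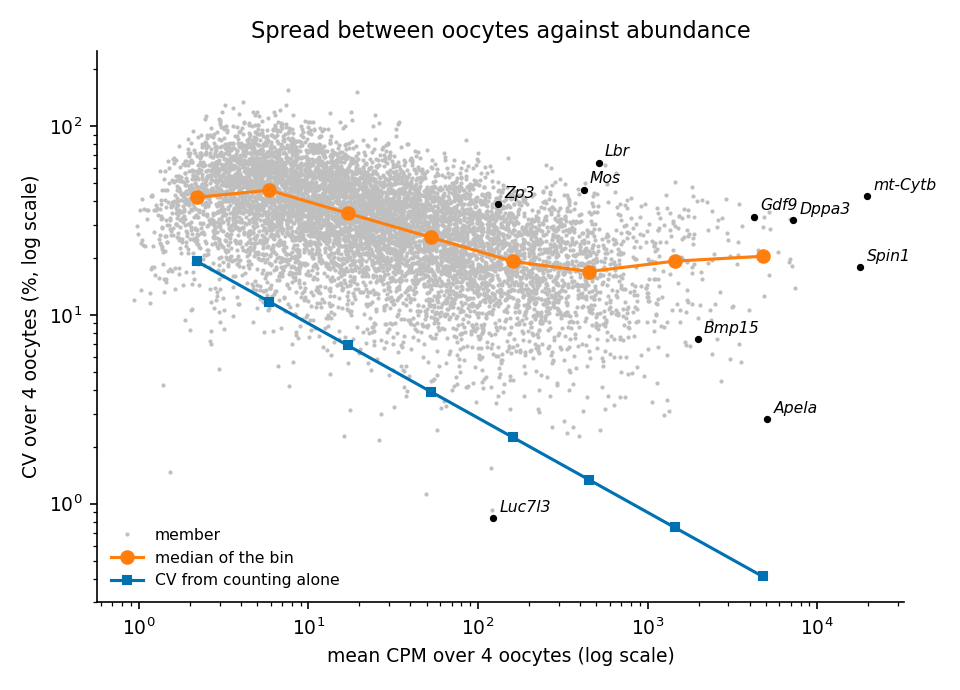
CV over 4 oocytes (vertical axis, %, log scale) against mean CPM (horizontal axis, log scale), with 1 grey point per member, orange circles for the median of bins of CPM and blue squares for the CV that counting alone would give. The median goes from 45.7% at 3 to 10 CPM to 17.0% at 300 to 1000 CPM and lies above the counting CV in each bin from 1 CPM upwards; below 1 CPM, with 3 members, it was 26.9% against 28.7%.

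Among 1822 members of at least 100 CPM, 1526 had all oocytes within 2-fold and 4 had a range of 4-fold or more. The largest CV among those with a plain symbol was that of Lbr, the lamin B receptor of the nuclear envelope, with 991, 458, 245 and 367 CPM (63.9%), high in oocyte 1. March7, a ubiquitin ligase, was also highest in oocyte 1, with 482, 213, 168 and 141 CPM. Prkar2b, a regulatory subunit of protein kinase A, had 83.5, 97.7, 78.1 and 224 CPM and was high in oocyte 4 alone. Zfp735, Ndufa4, Fbxw15 and the spectrin gene Sptbn1 were highest in oocyte 4 and second in oocyte 1, whereas Ubp1 and Astl, the egg protease that cleaves the zona after fertilisation, were highest in oocyte 2 and lowest in oocyte 4. Astl had 95.3, 202, 102 and 52.3 CPM.

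At the other end, Luc7l3, a splicing factor, had 124, 123, 122 and 122 CPM, a CV of 0.841%, which is not larger than the 2.57% that counting alone would give. Gtdc1, Brd7, Ecpas, Dnajc3, Pias1, Adss, Otud4 and Rap1b had CVs of 0.921% to 2.74%. Apela, a secreted peptide hormone, combined a steady with a high level, at 5203, 4980, 5187 and 4924 CPM, a CV of 2.81%. Bmp15 had 7.47% and Mos 46.0%, so markers of the same cell differed widely in how steady they were.

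Much of the difference between oocytes followed a pattern shared by many genes. Among members of at least 100 CPM, the first principal component of log2 levels took 68.6% of the variation, with loadings of 0.32, -0.41, -0.56 and 0.64 for oocytes 1 to 4, and among all members it took 46.5%. Oocytes 2 and 3 were the closest pair, with a Pearson correlation across members of 0.956 in log2 CPM and 12.9% of members 2-fold or more apart. Oocytes 3 and 4 were the farthest, with 0.924 and 25.8%. The order 4, 1, 2, 3 from highest to lowest was seen in 9 of the first 20 members by TPM, in 274 of 1822 members of at least 100 CPM and in 705 of all 8387.

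This pattern moved with base composition. Across members of at least 100 CPM, the Spearman correlation between GC content and the deviation of an oocyte from the mean of 4 was -0.35, 0.55, 0.35 and -0.45 for oocytes 1 to 4, and that with log length was -0.18, 0.07, 0.30 and -0.20. Over all 8387 members the correlations with GC content had the same signs and were smaller, at -0.18, 0.32, 0.23 and -0.30. In the quartile of lowest GC (33.1% to 42.0%) the median log2 deviations were 0.16, -0.19, -0.16 and 0.22, and in the quartile of highest GC (49.1% to 61.7%) they were -0.09, 0.18, 0.12 and -0.21. The signs were opposite in each oocyte between these 2 quartiles. H1foo, at 54.2% GC, Zbed3, at 53.9%, and Tubb3, at 57.9% GC with 191, 446, 368 and 141 CPM, were lowest in oocyte 4. mt-Cytb, at 39.1% GC, was highest there. Whether GC content has a part in the differences between eggs was not tested, and library and egg cannot be told apart with 1 library per oocyte.

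**Figure D5:**
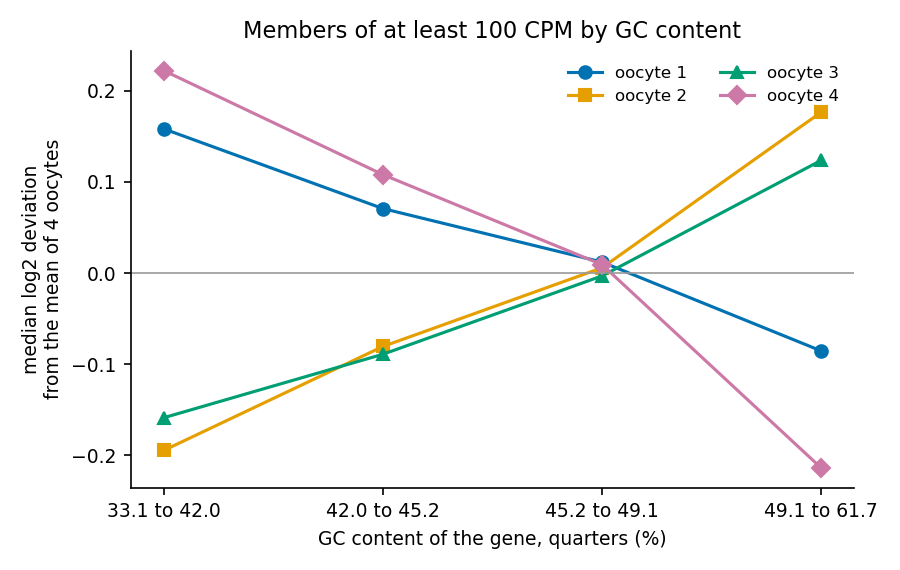
Median log2 deviation of each oocyte from the mean of 4 (vertical axis) in quartiles of GC content (horizontal axis, range in %) for members of at least 100 CPM, with 1 line per oocyte. Oocytes 1 and 4 go from 0.16 and 0.22 in the lowest quartile to -0.09 and -0.21 in the highest, and oocytes 2 and 3 go the other way.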

How the data were processed

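Single MII oocytes were lysed and their RNA was amplified with the SMARTer Ultra Low kit, and NEBNext libraries were read as 75-base single reads, per the labels' protocols. Counts per gene were made by the authors with featureCounts 1.4.4 and the annotation of Ensembl release 69, keeping reads of mapping quality 1 or more, with no strand or multiple-mapping option, per the file headers. GSNAP 2014-10-14 and mm10 are named in the submitters' processing notes. Without strand, overlapping antisense genes cannot be told apart, and amplified copies are counted as reads because there are no molecular identifiers. The table's other deposited column used here, gene length, is in bases. The authors' deposited table of their genotype comparison was not used here.

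From the deposited counts, TPM was computed with the deposited gene length for levels between genes, and CPM with TMM factors (edgeR 4.0.16, R 4.3.3; factors 0.927 to 1.07) for levels between oocytes. Even coverage along a message is assumed by TPM. Biological CVs came from an intercept-only edgeR fit, which returned 0.101, 0.201 and 0.395 for simulated CVs of 0.1, 0.2 and 0.4. A name table gave symbols for 35449 of 37224 identifiers, which carry 99.8% of control counts. GC content, gene types and 3' UTRs came from GENCODE release M21, using for each gene the coding transcript of longest coding sequence. The share of a gene's words of 75 bases, in its longest transcript, that also occur in another gene's transcripts was measured for 8328 members; this, the reversed words and the GC comparison were chosen after seeing the data. Python 3.11.15 with pandas and scipy did the rest.

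The members and the 42 gene lists were chosen with earlier results of these data known, so list medians describe and support nothing. Of the genes written in the lists, 9 matched no identifier. Named genes were the 20 of largest mean TPM, the 10 of largest mean CPM, the 10 of largest and of smallest CV among members of at least 100 CPM with a symbol free of Gm and Rik, the 4 of largest TPM in each list, the 4 markers, the 5 non-coding members of largest TPM, and 3 genes to either side of the threshold; others were named after their values were seen. Not every gene so named is reported here. Groups were compared only in the check of the targeted gene, and no p-value was computed; chi-square values compare pairs of libraries, and Dixon's critical value picks the genes of the closing section. Alternatives were other count minimums, thinning to the smallest library, other scalings and lengths, CPM in place of TPM, and each oocyte left out in turn.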

Additional observations from a re-analysis of the deposited data

Results flagged for a closer look

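A named gene is given here when the gap between 1 oocyte and the nearest of the other 3, divided by the range of all 4, was above Dixon's 95% critical value for 4 samples. Of 187 named genes, 7 did, and over all members 423 did (5.04%), about the share of 1 in 20 that chance gives. Oocyte 4 was the one apart for 4 of the 7 and for 151 of the 423.

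In oocyte 4, Prkar2b stood at 224 CPM (78.1 to 97.7 CPM in the others), Dld at 190 CPM (88.8 to 96.2 CPM) and Ube2g1, a ubiquitin-conjugating enzyme, at 551 CPM (387 to 406 CPM), all above the other eggs. Kitl was below them there, at 12.5 CPM (27.8 to 30.6 CPM). E330021D16Rik was lowest in oocyte 3, at 2779 CPM (3127 to 3138 CPM). Farsb, a transfer RNA synthetase subunit, was lowest in oocyte 1, at 192 CPM (215 to 217 CPM). Mier1 was highest in oocyte 1, at 1.41 CPM (0.777 to 0.875 CPM), which is a matter of 10 to 15 counts.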

How the results depend on the processing

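The number of members stayed within 1.5 times of 8387, from 7562 with 20 counts to 9527 with 10 counts in at least 3 libraries, and was 8541 to 8795 with 1 oocyte left out. The mean number of genes holding 50% of counts was 336, 153 in TPM and 319 to 355 with 1 oocyte left out. The share of the first 10 genes was 9.33%, 17.6% in TPM and 8.85% to 9.67% with 1 oocyte left out. Of the first 20 members by TPM, 14 were also first by CPM, 18 with the longest transcript as length and 18 to 20 with 1 oocyte left out. Lists with a median above that of all members numbered 33, 30 in CPM, 16 with all matched genes and 32 to 34 with 1 oocyte left out. The common biological CV was 38.6%, 77.6% with any counted gene, 23.0% at 100 CPM or more and 37.2% to 40.0% with 1 oocyte left out. The median CV was 30.6%, 57.9%, 18.4% and 27.3% to 30.3% under the same settings. The share of the top decile with the element was 32.5%, and 40.5% among members of 100 CPM or more. Of 120 other values of single genes 115 moved by less than 1 SD, as did 147 of 190 list medians. The 120 are values of the first 20 members by TPM. With 1 oocyte left out, or the median in place of the mean, a mean cannot move by 1 SD. Those values were therefore bound to stay, and only the longest transcript as length could move a gene. It moved 5 of the 20: Mphosph6, Btg4, E330034G19Rik, Omt2b and E330021D16Rik. Most of those 190 come from leaving 1 oocyte out. With all matched genes of a list counted, most list medians moved. Examples are glycolysis and pyruvate (17.2 to 1.97 TPM), nuclear oxidative phosphorylation (22.9 to 7.73 TPM), zona and fusion (125 to 50.9 TPM) and solute carriers (13.6 to 0.310 TPM). The chaperones, at 43.3 and 40.5 TPM, were among those that did not. No paired analysis was possible because the results come from no test and only 1 group is described. Depth bears most on scarce messages: at 1 to 3 CPM counting alone gives a median CV of 19.2%, where 41.9% was observed.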

Other observations

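Immunoglobulin genes were among the members, a group named here after the values were seen. Ighg2b, a heavy chain constant gene, had 105, 209, 94.1 and 147 CPM in oocytes 1 to 4, and Iglc2, a light chain constant gene, 78.3, 70.0, 52.9 and 79.3 CPM. Ighg1 (7.98 to 21.7 CPM), Ighm (5.69 to 27.3 CPM), Ighg3 (6.21 to 12.8 CPM), the variable genes Iglv1 (6.92 to 22.2 CPM) and Igkv8-26 (0.777 to 4.14 CPM), and the variable pseudogene Igkv13-87 (4.38 to 12.2 CPM) were lower. Of 9 genes that the annotation classes as immunoglobulin constant genes, 5 were members, against 2 of 203 variable genes, 1 of 10 variable pseudogenes and 22.5% of all genes in the table. The kappa constant gene Igkc and the B cell and plasma cell genes Cd79a, Cd79b, Jchain, Mzb1 and Ptprc had no count in any control library. In Ighg2b 0.803% and in Iglc2 0.940% of the 75-base words are shared with other genes. Counting used no strand, so reads of overlapping transcripts on the other strand are included.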
